A study of Homo sapiens with 12 samples.

Results

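Among the mRNAs that were less abundant in senescent than in proliferating WI-38 fibroblasts, 206 were more abundant again when senescent cells had been transfected with siNTRK2 or with siBDNF. These genes were chosen by their values in the libraries described here: a mean of at least 2 CPM (a gene's count per 1e6 counts of its library) in proliferating cells, a senescent control mean of at most 66.7% of the proliferating mean, a log2 ratio of means to the senescent control of at least 0.25 with each siRNA, and all 6 silenced libraries above all 3 senescent control libraries. Of the 57773 genes listed, 13917 reached 2 CPM in proliferating cells, 1889 of these met the condition on senescence and are called senescence-repressed, and 206 of these 1889 met the whole rule and are called members. Because the rule used the comparisons of senescent with proliferating cells and of each siRNA with the senescent control, values from these comparisons are given as a description, without a test.

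WI-38 is a line of human diploid lung fibroblasts, and bulk polyadenylated RNA from these cells was sequenced in 4 groups of 3 libraries. Proliferating cells received a non-targeting siRNA pool and were kept for 8 days in medium with DMSO, the vehicle of etoposide (siCtrl_Prolif). Etoposide, a topoisomerase II poison that breaks DNA, was given at 50 µM for 8 days to cells that had been transfected with the non-targeting pool (siCtrl_Sen), with a pool against NTRK2 mRNA, which encodes the neurotrophin receptor TrkB (siNTRK2_Sen), or with a pool against BDNF mRNA, which encodes the main TrkB ligand (siBDNF_Sen). Each siRNA pool was used at 25 nM, all groups came from 1 cell line at low population doublings, and no group tested a second, independent siRNA pool per target.

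Cells that enter senescence stop dividing, and the transcripts needed for DNA replication, mitosis and replication-coupled repair fall together. Many of their promoters are held silent by the DREAM complex, which contains the pocket proteins p107 (encoded by RBL1) and p130 and reaches DNA through E2F sites and through the cell cycle genes homology region (CHR). BRCA1, the gene used to mark the group, acts in homologous recombination and in the protection of stalled replication forks, and its mRNA peaks in S and G2 phase in dividing cells.

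Total counts ranged from 31567912 to 72328151 per library. NTRK2 was near the limit of detection, with 7, 15 and 10 counts in siCtrl_Sen and 0 in each siNTRK2_Sen library. BDNF was at 146 to 160 CPM in siCtrl_Prolif and 158 to 167 CPM in siCtrl_Sen. It was lower in siBDNF_Sen, at 45.3 to 50.7 CPM, and higher in siNTRK2_Sen, at 205 to 207 CPM. All 12 fibroblast markers examined (among them COL1A1, VIM and PDGFRB) were above 2 CPM, and none was a member. Their summed level was 32319 to 37426 CPM in siCtrl_Sen, 43249 to 45923 CPM in siNTRK2_Sen and 39221 to 41332 CPM in siBDNF_Sen, a sum carried by FN1, COL1A1 and COL1A2. The single markers were divided: THY1, VIM and DCN had means below siCtrl_Sen with both siRNAs (log2 ratios with siBDNF -0.48, -0.23 and -0.59), and PDGFRA, PDGFRB, S100A4 and LUM with siBDNF alone. Of the markers of other cell types, 4 of 10 epithelial, 1 of 7 endothelial, 1 of 8 muscle, 2 of 7 neuronal and 1 of 10 immune markers reached 2 CPM in proliferating cells, the last being CD68, a lysosomal protein gene (109 CPM in siCtrl_Sen, 78.0 CPM in siNTRK2_Sen and 186 CPM in siBDNF_Sen). Summed neuronal markers were at 263 to 281 CPM in siCtrl_Sen, 194 to 217 CPM in siNTRK2_Sen and 314 to 320 CPM in siBDNF_Sen, and summed endothelial markers at 34.8 to 37.4, 35.8 to 41.8 and 26.5 to 27.7 CPM. The part of these markers in the members' values was not tested. The mitochondrially encoded share of counts was 3.33 to 3.65% in siCtrl_Sen, 2.50 to 2.85% in siNTRK2_Sen and 1.78 to 2.38% in siBDNF_Sen.

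One control library weighed most on the rule. Replicate 2 of siCtrl_Sen was the highest of the 3 senescent control libraries in 130 of the 206 members, against 45 for replicate 1 and 31 for replicate 3. This count was not made for other genes, so it is not shown to be particular to the members. Leaving out replicate 2 brought the number of genes meeting the rule to 394, with 200 of the 206 members among them. Leaving out replicate 1 or 3 of siCtrl_Sen gave 206 and 202 genes, with 165 and 166 of the members among them. Likewise, 46 of the 106 repressed genes that reached both log2 ratios but overlapped the control did so through that library alone.

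The level of the members in each library is summarised as the median, over the 206 genes, of CPM expressed as a percentage of the siCtrl_Prolif mean. It was 51.9, 56.3 and 51.2% in the 3 siCtrl_Sen libraries, 71.6, 70.3 and 75.5% in siNTRK2_Sen and 72.5, 74.5 and 72.3% in siBDNF_Sen. Both silenced groups thus sat between the senescent control and the proliferating libraries, which lay at 90.4 to 105%. For the 1683 other senescence-repressed genes the same median was 52.8 to 54.9% in siCtrl_Sen, 56.8 to 58.5% in siNTRK2_Sen and 54.4 to 54.6% in siBDNF_Sen. Replicate 2 was the highest siCtrl_Sen library in this median for both sets of genes.

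**Figure D1:**
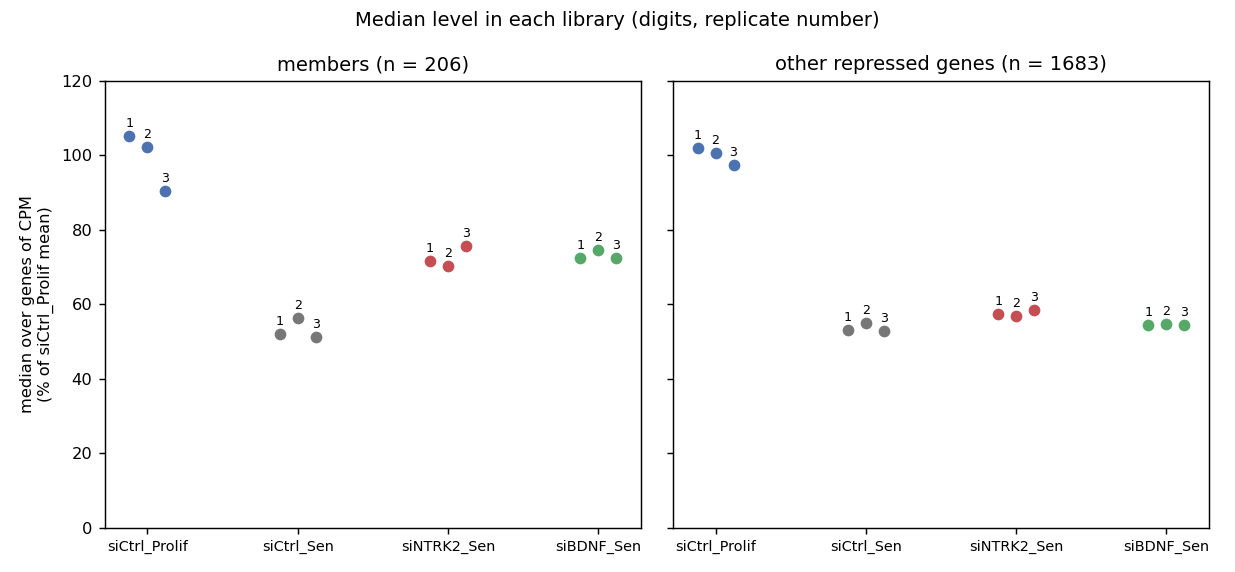
Median level of the members (left) and of the other senescence-repressed genes (right) in each of the 12 libraries, as CPM in percent of the siCtrl_Prolif mean; each point is 1 library and the digit is its replicate number. The members' medians were 51.2 to 56.3% in siCtrl_Sen and 70.3 to 75.5% over the 6 silenced libraries.

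The members' median fold to siCtrl_Sen was 1.39 (quartiles 1.28 and 1.53) with siNTRK2 and 1.37 (quartiles 1.26 and 1.48) with siBDNF. Expressed as the share of the fall in senescence that was regained, the median was 38.1% with siNTRK2 (33.3 to 43.6% when computed with each siNTRK2_Sen library alone) and 39.1% with siBDNF (35.8 to 40.4%). The siBDNF median depended on the scaling of the libraries. With TMM or DESeq2 scaling it fell below this range, as given in the last section, and the siNTRK2 median moved less. The proliferating level was reached or passed by 6 members with siNTRK2 and by 8 with siBDNF. At least 50% of the fall was regained by 67 members with siNTRK2, by 70 with siBDNF and by 45 with both. The siCtrl_Sen libraries enter both the fall and each rise, and the comparisons of the 2 siRNAs share them. In bulk RNA, more cells that express a gene and more RNA per cell cannot be told apart.

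The members were also divided by the depth of the fall. The regained share is the rise divided by the fall, so at equal fold a deeper faller regains a smaller share by arithmetic. The rule's minimum log2 ratio likewise forces a larger share on shallow fallers than on deep ones. The shares of these classes are therefore a description, and their order is not a finding in itself. The 31 members that had fallen to under 25% of the proliferating level, 12 of them on the mitosis list and 4 on the replication list, regained a median of 14.1% of the fall with siNTRK2 and 8.15% with siBDNF. The 124 that had kept 50 to 66.7% regained medians of 49.6 and 51.1%. On the log2 scale the order was the other way round for siNTRK2, with medians of 0.75 for the deepest fallers and 0.39 for the shallowest, and the siBDNF medians were 0.56 and 0.44. The 51 members between these classes had median log2 ratios of 0.50 and 0.42.

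Genes raised by both siRNAs were not limited to the repressed class. The conditions on the 2 siRNAs were met by 854 of the 13917 genes of at least 2 CPM (6.14%), by 206 of the 1889 repressed genes (10.9%) and by 648 of the 12028 others (5.39%). The mirror conditions, under which both siRNAs lowered a gene below all siCtrl_Sen libraries, were met by 240 genes of at least 2 CPM (1.72%) and by 21 repressed genes (1.11%). At the edge of the rule, CUL4B, a ubiquitin ligase scaffold, was just inside with a smaller log2 ratio of 0.2512 and C4orf46 followed with 0.2520. TIA1, an RNA-binding protein of stress granules, and ING3, a histone acetyltransferase subunit, were just outside with 0.2498 and 0.2497.

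**Figure D2:**
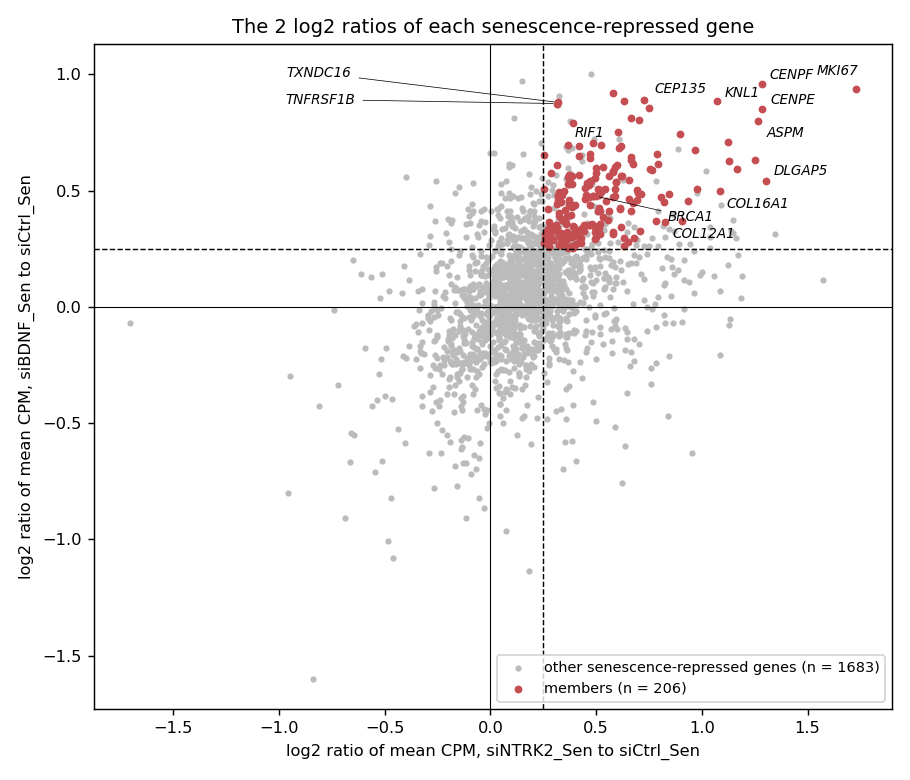
Each point is 1 of the 1889 senescence-repressed genes, with the log2 ratio of mean CPM to siCtrl_Sen for siNTRK2_Sen on the horizontal and for siBDNF_Sen on the vertical axis; red points are the 206 members, grey points the 1683 others, and dashed lines mark the minimum of 0.25. Grey points above both lines are repressed genes whose silenced and control libraries overlapped (106 genes), MKI67 is the member farthest to the right (1.73) and CENPF the highest (0.96).

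The promoters below are shown because the DREAM complex described above reaches DNA through E2F sites and the CHR. No list of DREAM target genes was compared with the members. Each is 300 bases of GRCh37 from 250 before to 50 after the start of the annotated canonical transcript, printed 5′ to 3′ along the gene, with capitals marking every match, on either strand, of an E2F-type word (TTTGGCGC, TTTCGCGC, TTTCCCGC or TTTGCCGC) or of the CHR word TTTGAA. They belong to BRCA1 and, of the members named by the fixed rule, to those with the most matches, 3 in DLGAP5 and 2 in each of the others. POLQ, named outside that rule, also held 2 CHR words and is not shown.
BRCA1 promoter, chr17:41277332-41277631, minus strand: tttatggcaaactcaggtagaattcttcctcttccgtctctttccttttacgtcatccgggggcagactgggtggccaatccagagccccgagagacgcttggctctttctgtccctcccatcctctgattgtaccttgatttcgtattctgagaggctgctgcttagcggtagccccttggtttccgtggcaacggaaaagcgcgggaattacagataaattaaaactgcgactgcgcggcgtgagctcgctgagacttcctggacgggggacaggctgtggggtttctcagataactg
DLGAP5 promoter, chr14:55658254-55658553, minus strand: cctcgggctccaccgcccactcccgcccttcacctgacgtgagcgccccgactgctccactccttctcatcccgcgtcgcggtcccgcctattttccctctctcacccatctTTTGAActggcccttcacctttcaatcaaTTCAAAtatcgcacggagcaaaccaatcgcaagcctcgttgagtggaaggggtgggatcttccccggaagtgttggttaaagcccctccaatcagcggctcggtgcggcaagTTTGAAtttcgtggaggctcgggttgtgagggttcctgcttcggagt
AGPAT4 promoter, chr6:161695044-161695343, minus strand: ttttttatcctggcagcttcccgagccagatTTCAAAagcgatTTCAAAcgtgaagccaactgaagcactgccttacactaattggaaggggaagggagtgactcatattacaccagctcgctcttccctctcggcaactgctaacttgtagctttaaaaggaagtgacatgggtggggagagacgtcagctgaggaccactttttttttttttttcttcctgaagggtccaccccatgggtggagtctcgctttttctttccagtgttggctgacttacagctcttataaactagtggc
KIF20B promoter, chr10:91461097-91461396, plus strand: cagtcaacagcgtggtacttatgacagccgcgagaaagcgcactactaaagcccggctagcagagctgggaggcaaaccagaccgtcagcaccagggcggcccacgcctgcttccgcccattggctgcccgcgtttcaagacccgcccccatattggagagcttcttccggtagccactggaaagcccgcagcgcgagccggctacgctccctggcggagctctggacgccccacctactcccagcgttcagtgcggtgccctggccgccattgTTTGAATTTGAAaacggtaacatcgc
MKI67 promoter, chr10:129924638-129924937, minus strand: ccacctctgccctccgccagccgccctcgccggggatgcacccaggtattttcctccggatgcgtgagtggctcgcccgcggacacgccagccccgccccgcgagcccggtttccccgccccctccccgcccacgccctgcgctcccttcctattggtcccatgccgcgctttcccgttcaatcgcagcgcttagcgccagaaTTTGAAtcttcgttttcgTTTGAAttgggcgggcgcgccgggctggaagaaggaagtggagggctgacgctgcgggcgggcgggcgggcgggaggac
RBL1 promoter, chr20:35724351-35724650, minus strand: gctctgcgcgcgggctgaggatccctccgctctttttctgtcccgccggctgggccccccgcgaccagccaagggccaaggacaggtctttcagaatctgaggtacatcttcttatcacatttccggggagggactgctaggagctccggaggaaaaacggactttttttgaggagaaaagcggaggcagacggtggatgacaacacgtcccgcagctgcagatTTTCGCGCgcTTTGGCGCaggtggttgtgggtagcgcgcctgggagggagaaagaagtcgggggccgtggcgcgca

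DLGAP5, which encodes a spindle protein, MKI67, which encodes the Ki-67 antigen, KIF20B, a mitotic kinesin gene, and AGPAT4, which encodes a lysophosphatidic acid acyltransferase, carried CHR words alone, and RBL1 carried a pair of E2F-type words near its start. The BRCA1 window held neither word, which says only that these letters were not there. Over the 197 members with such a window, 50 (25.4%) held the CHR word, against 14.7% of the 1630 windows of other senescence-repressed genes, 10.0% of the 13373 windows of genes of at least 2 CPM and 18.1% of all 46123 windows. An E2F-type word stood in 16 members (8.12%), in 7.42% of the other repressed genes, in 5.10% of genes of at least 2 CPM and in 2.49% of all windows. No member held both, and both were also rare in other repressed genes (1.10%), genes of at least 2 CPM (0.52%) and all windows (0.30%).

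The letters CCAAT were found in 46.2% of member windows, 39.8% of other repressed, 35.4% of genes of at least 2 CPM and 35.7% of all windows. The GC box GGGCGG was found in 72.6, 69.2, 69.4 and 34.8%, in the same order. TATAAA stood in 7.61, 6.50, 5.99 and 15.4%, the CRE word TGACGTCA in 1.52, 3.07, 3.13 and 1.37%, the AP-1 words TGACTCA and TGAGTCA in 2.54, 2.82, 2.79 and 4.27%, and the NRF1 core GCGCATGC in 6.09, 4.60, 5.50 and 2.36%. Matches of different words may overlap. Median GC content of the windows was 63.7% in members, 64.7% in other repressed genes, 65.3% in genes of at least 2 CPM and 52.7% over all windows. These shares are descriptions of letters, not of factor binding.

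Repair genes were the group to which BRCA1 belongs. Of 39 senescence-repressed genes of double-strand break repair and the Fanconi pathway, 9 were members (23.1%, against 10.9% of all repressed genes): BRCA1, RIF1, FANCD2, ETAA1, CLSPN, POLQ, GEN1, MCM9 and PARPBP. Over the 39, the median log2 ratio was 0.35 with siNTRK2 and 0.21 with siBDNF, against 0.18 and 0.09 over all 1889 repressed genes. With siNTRK2 37 of the 39 ratios were above 0, and with siBDNF 28 were.

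BRCA1 (chr17:41196312-41322262 in GRCh37, minus strand) was at 6.99, 7.04 and 6.03 CPM in proliferating cells and at 2.49, 3.45 and 2.95 CPM in siCtrl_Sen. It was at 4.25, 4.39 and 3.92 CPM in siNTRK2_Sen and at 3.99, 4.17 and 4.21 CPM in siBDNF_Sen. The lowest silenced library was above the highest siCtrl_Sen library, replicate 2, and all silenced libraries stayed below all proliferating ones. The means were 6.69 ± 0.57, 2.97 ± 0.48, 4.19 ± 0.24 and 4.13 ± 0.12 CPM (SD, n = 3 each), which is 1.41-fold siCtrl_Sen with siNTRK2 and 1.39-fold with siBDNF, or 32.9 and 31.2% of the fall. Without siCtrl_Sen replicate 2 the log2 ratios were 0.62 and 0.60, and with all libraries 0.50 and 0.48.

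RIF1, which steers break repair towards end joining and controls replication timing, was at 32.3, 28.7 and 23.0 CPM in proliferating cells and at 13.5, 17.2 and 14.4 CPM in siCtrl_Sen. It was at 21.5, 23.2 and 24.7 CPM with siNTRK2 and at 23.3, 27.4 and 22.3 CPM with siBDNF. The silenced libraries overlapped the proliferating range, and RIF1 regained 62.4 and 71.7% of its fall. FANCD2, the Fanconi protein that is monoubiquitinated at crosslinks, had fallen further, to 13.3% of the proliferating level, and was at 1.41, 1.44 and 1.06 CPM in siCtrl_Sen, 1.53, 2.02 and 1.86 CPM in siNTRK2_Sen and 1.74, 1.84 and 1.71 CPM in siBDNF_Sen. It regained 5.92 and 5.47% of the fall, so its silenced libraries remained far below the proliferating 8.60 to 10.4 CPM.

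ETAA1, an activator of the ATR kinase at stalled forks, regained 47.8 and 44.8% of its fall, with 3.75 to 4.30 CPM in siCtrl_Sen and 5.32 to 6.18 CPM over the 6 silenced libraries. CLSPN, which encodes the ATR adaptor claspin, had log2 ratios of 1.13 and 0.63. POLQ, the polymerase of theta-mediated end joining, had 0.69 and 0.46, and GEN1, a Holliday junction resolvase, had 0.70 and 0.80. The resolvase and PARPBP were higher with siBDNF than with siNTRK2 in their means, and the other repair members apart from RIF1 were higher with siNTRK2. NEIL3, a glycosylase that acts in replicating cells, was the only member among 4 repressed genes of other repair pathways and had log2 ratios of 0.76 and 0.59.

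Genes of DNA replication gave 6 members of 44 repressed (13.6%), namely CDC6, RFC5, DBF4, GINS1, TICRR and ESCO2. CDC6, which loads the MCM helicase onto origins, was at 18.8, 19.6 and 19.6 CPM in proliferating cells and at 3.79, 2.83 and 2.71 CPM in siCtrl_Sen. It was at 5.63, 5.02 and 5.69 CPM with siNTRK2 and at 4.43, 4.36 and 4.17 CPM with siBDNF. The siNTRK2_Sen libraries were above the siBDNF_Sen libraries without overlap, and the regained shares were 14.4 and 7.44%. DBF4, the regulatory subunit of the CDC7 kinase, regained 14.2 and 14.3%, and RFC5, a clamp loader subunit, 30.9 and 22.9%. GINS1, a subunit of the replicative helicase, regained 9.86 and 8.60%. None of 15 repressed genes of nucleotide supply was a member, and their median log2 ratios were 0.07 and -0.02.

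Mitosis and spindle genes were the list with the most repressed genes, 90 of 96, and 16 members (17.8% of the repressed). With siNTRK2 all 90 log2 ratios were above 0 on column totals (89 with DESeq2 size factors) and the median was 0.67, whereas with siBDNF 66 were above 0 (57 with DESeq2 size factors) and the median was 0.14. A log2 ratio of 0.25 was reached by 31 of the 90 with siBDNF and by 78 with siNTRK2. Summed over 25 markers of cycling cells, of which 24 were repressed and 3 were members, the level was 1030 to 1060 CPM in proliferating cells, 281 to 289 CPM in siCtrl_Sen, 324 to 337 CPM in siNTRK2_Sen and 293 to 299 CPM in siBDNF_Sen. With siNTRK2 21 of the 25 were above the siCtrl_Sen mean and with siBDNF 14. Of the 24 repressed ones, 13 were above it with siBDNF on column totals (median log2 ratio 0.02) and 9 with TMM or DESeq2 scaling (median -0.04 with each). The part of a changed share of cycling cells in the members' values was not tested.

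CENPF, a kinetochore protein of G2 and M phase, had the largest smaller log2 ratio of all members. It was at 17.98, 20.4 and 16.1 CPM in proliferating cells and at 2.04, 3.77 and 2.18 CPM in siCtrl_Sen, with replicate 2 the highest. It was at 6.22, 6.40 and 6.87 CPM with siNTRK2 and at 4.24, 6.35 and 4.91 CPM with siBDNF. The folds of the means were 2.44 and 1.94, and one siBDNF_Sen library reached the range of the siNTRK2_Sen libraries.

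MKI67 was at 15.5, 16.4 and 15.6 CPM in proliferating cells and at 1.62, 1.39 and 0.801 CPM in siCtrl_Sen. It was at 4.37, 3.87 and 4.39 CPM with siNTRK2 and at 2.03, 2.90 and 2.35 CPM with siBDNF. The silenced groups did not overlap each other, the folds of the means were 3.32 and 1.91, and 20.2 and 7.94% of the fall was regained. KNL1, the kinetochore scaffold for the spindle checkpoint, was at 0.720, 1.46 and 0.972 CPM in siCtrl_Sen, at 2.24, 2.29 and 2.10 CPM with siNTRK2 and at 1.74, 2.07 and 2.01 CPM with siBDNF.

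CENPE, the kinetochore kinesin, had log2 ratios of 1.28 and 0.85, and ASPM, a spindle pole protein, 1.27 and 0.80. KIF20B, by contrast, had a higher mean with siBDNF than with siNTRK2 (log2 ratios 0.85 and 0.75). Condensin and cohesin-related genes were among the members: SMC4 (0.97 and 0.68), SMC2 (0.59 and 0.54) and NCAPG2 (0.63 and 0.26) for condensins, SMC3 (0.47 and 0.35) for cohesin, and ESCO2 (1.25 and 0.63) for the acetyltransferase that locks cohesin on replicated DNA. CKAP2, a microtubule-associated protein gene, had 0.41 and 0.27.

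The lowest levels relative to proliferating cells belonged to TROAP (5.22% in siCtrl_Sen), DLGAP5 (7.23%), MKI67 (8.01%), PLK4 (8.52%) and KIFC1 (9.002%). DLGAP5 was at 1.79, 1.86 and 1.45 CPM in siCtrl_Sen, 4.38, 4.09 and 4.11 CPM with siNTRK2 and 2.19, 2.90 and 2.34 CPM with siBDNF. PLK4, the kinase that starts centriole duplication, was at 0.878, 1.02 and 0.375 CPM in siCtrl_Sen, at 1.49 to 1.84 CPM with siNTRK2 and at 1.05 to 1.21 CPM with siBDNF. For each of these 5 genes the siNTRK2_Sen and siBDNF_Sen libraries did not overlap, and at most 7.94% of the fall was regained with siBDNF. The share of all genes without such overlap was not counted. By the edgeR test described below, 16.7% of all genes tested and 34.0% of the other senescence-repressed genes differed between the 2 siRNAs.

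CEP135, a centriole assembly protein gene outside the mitosis list, was the nearest to complete recovery among the 8 members with the largest smaller log2 ratio. It was at 6.04, 5.32 and 5.59 CPM in proliferating cells and at 2.71, 3.32 and 3.26 CPM in siCtrl_Sen. It was at 5.06, 5.12 and 5.14 CPM with siNTRK2 and at 5.83, 6.01 and 5.36 CPM with siBDNF. The siBDNF_Sen libraries overlapped the proliferating ones, and 78.8 and 103% of the fall was regained. AGPAT4, the lipid enzyme gene among these 8, was at 2.74, 3.07 and 2.74 CPM in siCtrl_Sen, at 5.36, 6.21 and 4.37 CPM with siNTRK2 and at 5.01, 4.19 and 5.14 CPM with siBDNF.

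**Figure D3:**
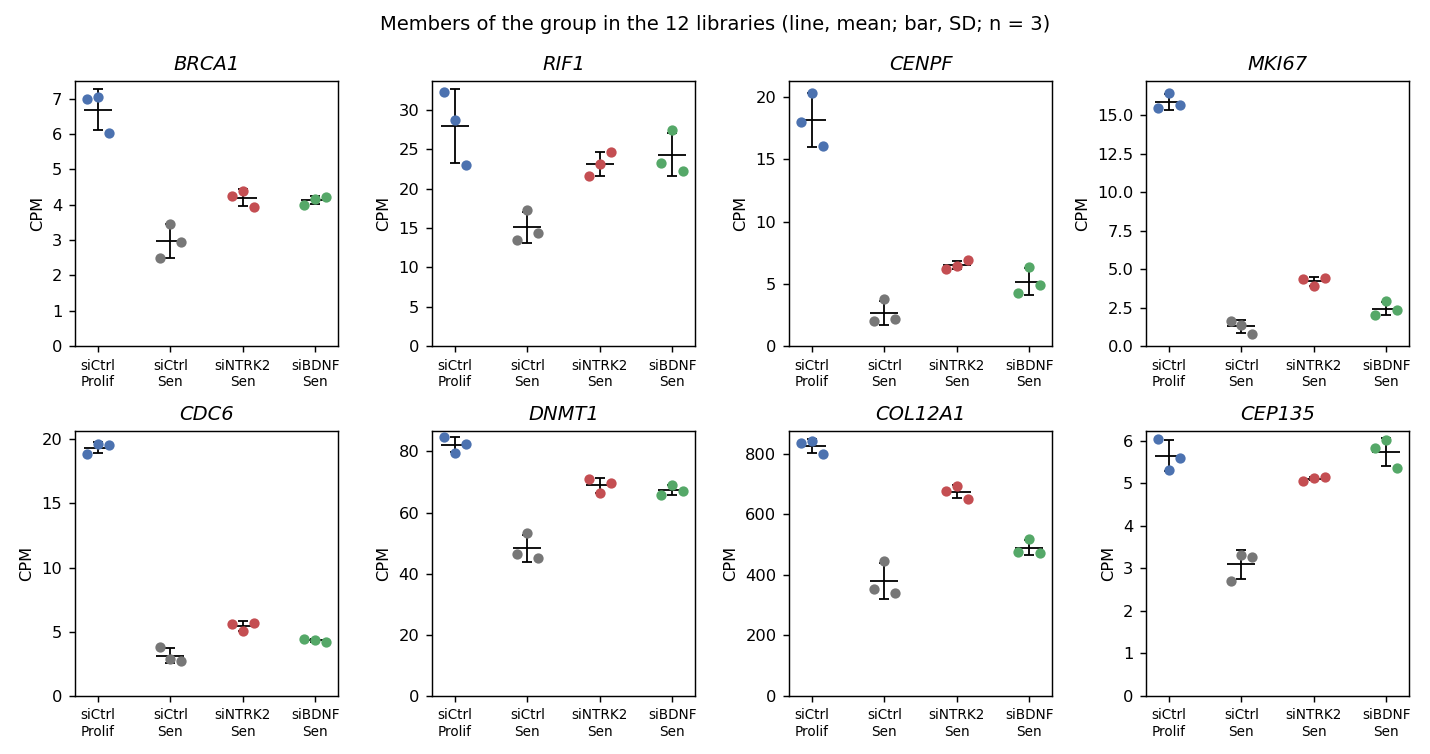
CPM of 8 members in the 12 libraries, with 1 point per library, a line for the mean and a bar for the SD (n = 3 per group); every vertical axis starts at 0. In each panel the 6 silenced libraries lie above the 3 siCtrl_Sen libraries, as the rule requires, and CEP135 and RIF1 reach the range of the proliferating libraries whereas MKI67, CENPF and CDC6 stay below it.

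Regulators of the cell cycle gave 4 members of 16 repressed. FBXO5, which encodes the APC/C inhibitor EMI1, had log2 ratios of 0.58 and 0.31, RBL1 0.43 and 0.30, and LIN9, a subunit of the MuvB core of DREAM, 0.37 and 0.25. CKS2, a CDK-binding protein gene, had 0.38 and 0.40. Only CKS2 of these 4 was still a member under TMM library sizes.

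Chromatin and nuclear lamina genes gave 6 members of 22 repressed (27.3%), and all 6 were members under each of 3 other scalings, while 3 (DNMT1, EZH2 and CBX2) were with the length and GC trend removed. DNMT1, the maintenance DNA methyltransferase, was at 84.6, 79.6 and 82.4 CPM in proliferating cells and at 46.3, 53.4 and 45.1 CPM in siCtrl_Sen. It was at 71.0, 66.3 and 69.7 CPM with siNTRK2 and at 65.7, 69.0 and 67.2 CPM with siBDNF. The silenced groups overlapped each other and lay between the control groups, with 61.0 and 56.0% of the fall regained. EZH2, the methyltransferase of Polycomb repressive complex 2, was at 2.22 to 2.69 CPM in siCtrl_Sen and at 2.89 to 3.36 CPM over the silenced libraries, and regained 6.80 and 6.71% of a fall from 12.8 CPM. LBR and TMPO, which encode the lamin B receptor and lamina-associated polypeptide 2, regained 10.3 and 14.5% and 9.61 and 6.99%.

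Outside these lists, 10 of 50 repressed zinc finger genes of the ZNF series were members (20%), a family made up largely of transcriptional repressors. Their list had median log2 ratios of 0.34 and 0.26 over the 50, and 47 and 45 of the 50 ratios were above 0. ZNF22, ZNF292, ZNF33A and ZNF780B had the highest proliferating CPM, with log2 ratios of 0.36 to 0.52 with siNTRK2 and 0.39 to 0.51 with siBDNF. ZNF genes of one cluster share sequence, and their counts are uncertain where reads match several of them. TET2 and TET3, dioxygenases of 5-methylcytosine, were named after their values were seen and had log2 ratios of 0.79 and 0.66, and 0.42 and 0.69. None of 23 repressed splicing genes and none of 12 repressed genes of cholesterol and fatty acid synthesis was a member.

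Extracellular matrix genes gave 5 members of 24 repressed (20.8%), all with a larger log2 ratio with siNTRK2. COL12A1, a fibril-associated collagen gene, was at 837, 843 and 800 CPM in proliferating cells, and at 352, 447 and 340 CPM in siCtrl_Sen. It was at 676, 694 and 651 CPM with siNTRK2 and at 477, 519 and 473 CPM with siBDNF. The silenced groups did not overlap, and the folds were 1.77 and 1.29. COL16A1, also fibril-associated, was at 47.4, 58.0 and 45.1 CPM in siCtrl_Sen, at 115, 94.1 and 110 CPM with siNTRK2 and at 69.9, 76.8 and 65.6 CPM with siBDNF.

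COL6A3, a chain of microfibrillar type VI collagen, had the highest CPM of all members, a scale that is not corrected for transcript length, with 1329 to 1650 CPM in siCtrl_Sen, 2298 to 2416 CPM in siNTRK2_Sen and 1937 to 2120 CPM in siBDNF_Sen. COL5A1, which nucleates type I collagen fibrils, regained 130 and 64.8% of its fall, and NID1, the basement membrane linker nidogen, 28.6 and 19.7%. MYH9, the non-muscle myosin IIA heavy chain, was the only member among 11 repressed actin and contractile genes and regained 91.4 and 37.7%, but it was not a member with TMM or DESeq2 scaling or with the length and GC trend removed. Further members by list were GLI2, a Hedgehog transcription factor (log2 ratios 0.61 and 0.42), and XPO1, the nuclear export receptor (0.32 and 0.48). UTP20, of the small ribosomal subunit processome, had 0.62 and 0.56, and H3-3B, a gene for the replication-independent histone H3.3 with near-identical copies elsewhere in the genome, had 0.27 and 0.31. In all, 61 members were in at least 1 list and 145 were in none.

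The direct comparison of siNTRK2_Sen with siBDNF_Sen was not used by the rule and was tested across all genes by the quasi-likelihood method of edgeR, with p-values adjusted by Benjamini-Hochberg. Of the 206 members, all of which were tested, 30 differed at an adjusted p under 0.05 (14.6%), 25 higher with siNTRK2 and 5 higher with siBDNF, where 3595 of all 21518 genes tested did (16.7%), 1903 higher with siNTRK2 (8.84%) and 1692 lower (7.86%). The members' shares were 12.1% higher and 2.43% lower with siNTRK2. The median log2 fold change of siNTRK2_Sen over siBDNF_Sen was 0.06 over the members, -0.0037 over all genes and 0.14 over the other senescence-repressed genes. Of these other repressed genes 34.0% were called, 29.4% higher and 4.69% lower with siNTRK2. More calls higher with siNTRK2 were thus not particular to the members. Since a member had to be raised by both siRNAs, its difference between them was limited by the choice of members, and no member differed by more than 1 on the log2 scale. The methods of the study state, for its cell culture work in general, that experiments were repeated independently with all groups side by side. The labels do not tie these libraries to such repeats, so the p-values measure the spread between the libraries as deposited.

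BRCA1 did not differ detectably between the siRNAs (log2 fold change 0.06 ± 0.12 SE, adjusted p = 0.818 by edgeR). None of the 9 repair members, 4 cell cycle regulators, 6 chromatin genes and 10 ZNF genes passed the edgeR test, with medians of 0.06, 0.15, 0.05 and 0.06 in this order. At an unadjusted p under 0.05 there was 1 gene in each of the repair, cell cycle and chromatin lists and 0 among the ZNF genes, and DESeq2 called 0 in all 4 lists. Of the 16 mitotic members 5 passed, all higher with siNTRK2: MKI67 (0.81 ± 0.15, adjusted p = 0.00047 by edgeR), DLGAP5 (0.78 ± 0.12), KIFC1 (0.50 ± 0.11), NCAPG2 (0.40 ± 0.08) and SMC4 (0.32 ± 0.10). CDC6 was the replication gene that passed, at 0.38 ± 0.11. TROAP passed narrowly (0.59 ± 0.21, adjusted p = 0.0499 by edgeR), and PLK4 with the same difference did not (0.59 ± 0.21, adjusted p = 0.0519).

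All 5 extracellular matrix members were higher with siNTRK2. COL16A1 had the largest difference of them (0.63 ± 0.07, adjusted p = 8.89e-07 by edgeR), followed by COL12A1 (0.50 ± 0.06), COL5A1 (0.40 ± 0.06), COL6A3 (0.27 ± 0.05) and NID1 (0.18 ± 0.04). MYH9 was higher by 0.38 ± 0.05. The summed fibroblast markers, which include other collagens, were also higher in siNTRK2_Sen than in siBDNF_Sen (the ranges given above), and their part in these differences was not tested.

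Of the 69 members with a negative log2 fold change, 5 passed the test as higher with siBDNF. TNFRSF1B, which encodes tumour necrosis factor receptor 2, was at 5.25, 5.83 and 6.26 CPM in siCtrl_Sen, at 6.33, 6.35 and 8.86 CPM with siNTRK2 and at 10.9, 10.2 and 10.6 CPM with siBDNF. It had a log2 fold change of -0.52 ± 0.11 (adjusted p = 0.00131 by edgeR) and barely cleared the control with siNTRK2. TXNDC16, a thioredoxin domain protein gene of the endoplasmic reticulum, was at 1.53 to 1.93 CPM in siCtrl_Sen, 1.94 to 2.63 CPM with siNTRK2 and 2.93 to 3.42 CPM with siBDNF (-0.52 ± 0.18, adjusted p = 0.0444). SEMA4B, a semaphorin gene, differed by -0.26 ± 0.07, PCDH7, a protocadherin gene, by -0.21, and the gene listed only as ENSG00000248774 by -0.36 ± 0.10.

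**Figure D4:**
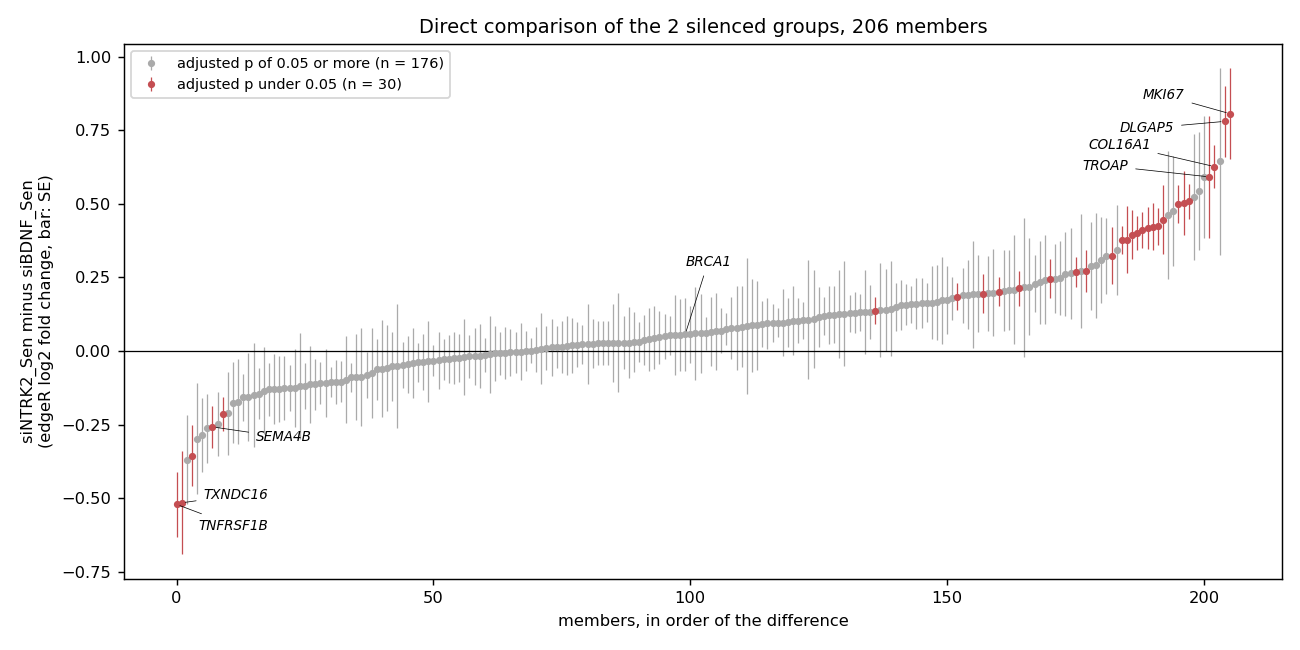
Log2 fold change of siNTRK2_Sen over siBDNF_Sen for the 206 members in order of its size, with the SE as a bar, from the edgeR fit; red points are the 30 members at an adjusted p under 0.05. The red points are 25 above 0, led by MKI67 (0.81) and DLGAP5 (0.78), and 5 below 0, led by TNFRSF1B and TXNDC16 (both -0.52), with BRCA1 near the middle at 0.06.

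The members shared features that the rule did not use. Their canonical transcripts had a median length of 4875 bases (197 members with a value, quartiles 3372 and 7402), against 3204 bases for the other senescence-repressed genes and 3014 bases for genes of at least 2 CPM. Median GC content was 40.7%, 45.9% and 48.6% in the same order. The median number of exons was 14 in members and 8 in both other sets, and the median gene span was 63681 bases in members and 32561 bases in other repressed genes. Of the transcripts named above, RIF1 had 14662 bases, MKI67 12716, COL12A1 11725, CENPF 10290 and BRCA1 7088.

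Members were more frequent among long transcripts. Of repressed genes with transcripts under 2000 bases 18 of 461 were members (3.90%), and of those of 6000 bases or more 71 of 316 (22.5%). The share raised by both siRNAs also increased with length among genes that were not repressed, from 1.56% under 2000 bases to 16.9% at 6000 bases or more. Among genes of at least 2 CPM outside the group, the median relative level of long minus short transcripts (log2) was -0.18, -0.03 and -0.20 in the 3 siCtrl_Sen libraries, 0.05, 0.04 and 0.08 in siNTRK2_Sen, 0.10, 0.15 and 0.09 in siBDNF_Sen, and 0.01, -0.02 and -0.13 in siCtrl_Prolif. All silenced libraries thus lay above all siCtrl_Sen libraries in this measure too, and the control library nearest to them was replicate 2, the one in which most members were highest.

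With the trend in transcript length and GC content removed from each library, 75 of the 206 members still met the rule and 131 did not. This alternative was chosen after seeing the data. The trend could be removed only from the 197 members with a transcript length. The others kept their values unchanged and were all among the 75. The control libraries were adjusted as well, and 1479 genes were senescence-repressed in place of 1889. A member could thus be lost through any condition of the rule, not only through its log2 ratios. The log2 ratio with siNTRK2 stayed above 0 in all 206 members and with siBDNF in 204, with medians of 0.36 and 0.31 in place of 0.47 and 0.46. Over members with a transcript length, the 75 had a median transcript of 4194 bases and 44.5% GC, the 131 one of 5139 bases and 39.8%. BRCA1 was among the 75 (log2 ratios 0.36 and 0.30), as were 6 of the 9 repair members (also FANCD2, GEN1, RIF1, CLSPN and PARPBP), 9 of the 16 mitotic members (among them KIF20B, KIF14, KIFC1, CENPF, KNL1, DLGAP5, MKI67 and SMC4), and 4 of the 5 matrix members. Of the 10 ZNF members 3 remained, among them ZNF43, which had no transcript length and kept its values unchanged. Of the 6 replication members 4 remained, of the 6 chromatin members 3, and of the 4 cell cycle regulators 1, CKS2.

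**Figure D5:**
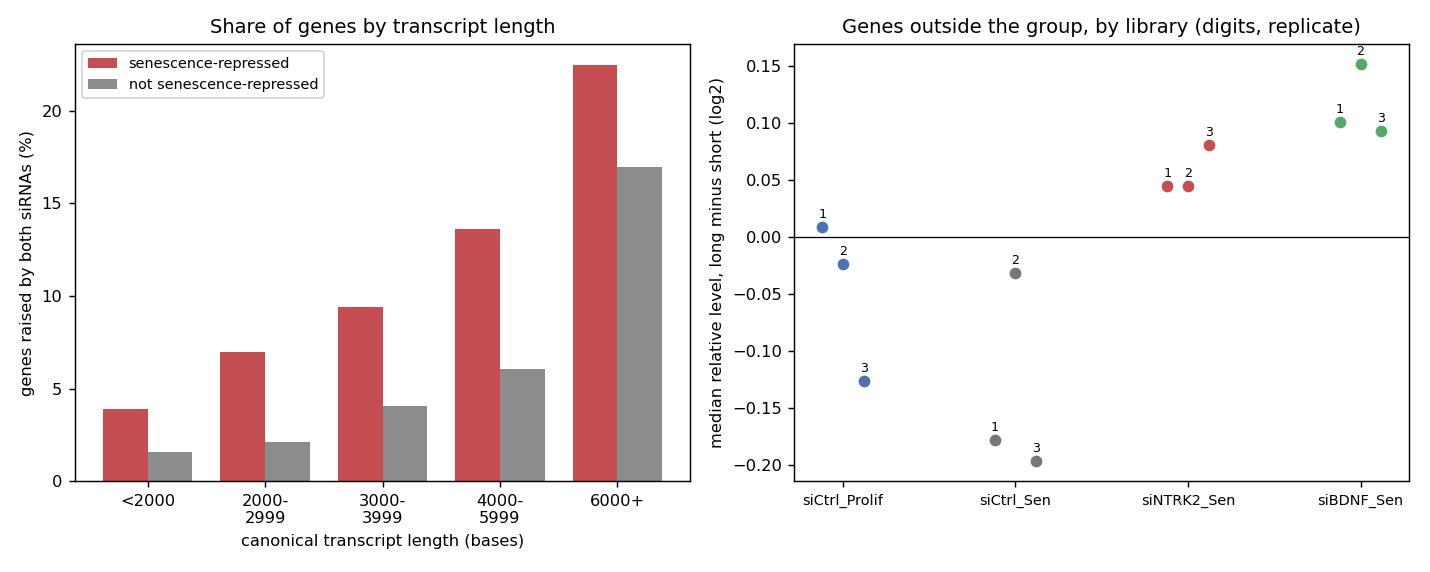
Left, percentage of genes raised by both siRNAs by length class of the canonical transcript, for senescence-repressed (red, where these genes are the members) and other genes of at least 2 CPM (grey): from 3.90 to 22.5% and from 1.56 to 16.9%. Right, median relative level of transcripts of at least 6000 bases minus that of transcripts under 2000 bases (log2) among genes outside the group, 1 point per library with its replicate number; the 6 silenced libraries lie above 0 and the 3 siCtrl_Sen libraries below it.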

How the data were processed

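Paired-end reads from stranded libraries of polyadenylated RNA (12 libraries, 3 per group by the sample labels) were processed by the authors with bcl2fastq 2.20.0.422, Cutadapt, STAR 2.4.0j (hg19, that is GRCh37) and featureCounts 1.6.4. The deposited values are raw counts per Ensembl gene, and a strand setting for the counting is not given in the sources used here, so overlapping and antisense genes are uncertain. All rows are genes, and 55538 of 57773 identifiers were paired with a symbol.

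Members were found on CPM from column totals. The members, the gene lists and the motifs were chosen with earlier results of these data known. The genes named were BRCA1, the 8 members with the largest smaller log2 ratio, up to 4 per list by proliferating CPM, the 5 highest in proliferating CPM and the 5 lowest in siCtrl_Sen relative to siCtrl_Prolif, the 4 largest called differences in each direction between the siRNAs, and the genes nearest to the log2 minimum. TET2, TET3, PCDH7, CBX2, EZH2, CLSPN, POLQ, GEN1, PARPBP, MCM9, TICRR, ESCO2 and KIF14 were named after their values were seen, apart from their place in a list.

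The siNTRK2_Sen and siBDNF_Sen groups were compared by edgeR 4.0.16 in R 4.3.3 (TMM, filterByExpr, 1 term per group, all 12 libraries, quasi-likelihood F test, Benjamini-Hochberg adjustment over 21518 genes), which was tested on simulated counts. The SE of a log2 fold change was its size over the root of the F statistic. DESeq2 1.42.0 was an alternative. Transcript length, GC content and promoter windows come from GENCODE canonical transcripts on GRCh37, since a RefSeq promoter table (planned) matched 162 members (78.6%), too few for shares. Length and GC trends were removed per library with natural splines (4 degrees of freedom each). Genes without a canonical transcript length were left unchanged. Same-numbered libraries of different groups did not detectably deviate together (mean correlation 0.02, range -0.21 to 0.18, against a mean of -0.0092 for different numbers). With 3 libraries per group, this cannot exclude that the numbers pair the samples. Replicate libraries differed by more than counting noise (chi-square per gene 3.94 to 13.6).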

Additional observations from a re-analysis of the deposited data

How the results depend on the processing

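The number of genes meeting the rule was 206 on column totals, 169 with TMM library sizes (157 of the 206 kept), 158 with DESeq2 size factors (151 kept) and 171 without mitochondrial genes in the total (171 kept). It was 47 with a log2 minimum of 0.5, 124 with a minimum of 10 CPM, 82 with siCtrl_Sen at most 50% of siCtrl_Prolif and 312 without the condition on overlap. With the length and GC trend removed it was 81, and with the length trend removed 106, both chosen after seeing the data. Genes without a transcript length kept their values in both. Leaving out each library gave 184 to 394, the upper end without siCtrl_Sen replicate 2. The median regained share with siBDNF (39.1%) was 30.4% with TMM, 30.8% with DESeq2 size factors, 45.3% in members with log2 ratios of at least 0.5, 28.8% with the trend removed and 36.5 to 41.4% without each library, and the cause was not tested. That with siNTRK2 moved by less than 1 SD (34.7 to 42.6% without each library).

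Of the 206 members, 0 passed with an absolute log2 fold change over 1 between the siRNAs (by edgeR 30 passed at the adjusted p alone, and 29 by DESeq2), and 250 of all genes did. The other settings called 25 to 45 members and leaving out each library 20 to 27 (2286 to 3249 of all genes, the lowest without siBDNF_Sen replicate 3). With the replicate block 31 members passed, and BRCA1 differed by 0.06 (adjusted p = 0.799), without a change of call. BRCA1 stayed uncalled throughout (log2 fold change 0.03 to 0.10 without each library). Among the members named by the fixed rule, the only ones followed singly through these settings, the direction between the siRNAs turned in some with small, uncalled differences: with library totals in DBF4 (-0.015), CKS2 (-0.015), ZNF22 (-0.025), ZNF33A (-0.0083), H3-3B (-0.038) and CUL4B (-0.028), with the trend removed in KIF20B (0.036), RIF1 (0.072) and ZNF292 (0.069), and without 1 library in RIF1 (-0.096 to 0.063), FANCD2 (-0.025 to 0.17), DBF4 (-0.026 to 0.14), CKS2 (-0.041 to 0.094), ZNF22 (-0.033 to 0.062), ZNF292 (-0.086 to 0.013), ZNF33A (-0.037 to 0.13), H3-3B (-0.013 to 0.018) and CUL4B (-0.048 to 0.061). Members at 1 CPM or less in siCtrl_Sen rest on few counts in the smallest libraries.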
